A study of Mus musculus with 20 samples.

Results

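The G2/M and mitosis genes are 55 genes whose products take a cell from G2 into mitosis, attach and part its chromosomes, and divide the daughter cells. They were chosen by symbol from a written list and not by any measured value, and all 55 were found in both deposited count tables, among 13107 genes in the Myc experiment and 11210 genes in the HU experiment. RNA was sequenced from p19/Nras cells, a murine liver cancer line that grew out of a tumor driven by Nras in p19/Arf-null mice, so that all groups share this background. In the Myc experiment, Trim33-WT cells (sgCtrl) and 2 knockout lines, KO1 and KO2 (both sgTrim33), carried either the Ctrl vector pWZL or a Myc vector, without treatment. In the HU experiment, Trim33-WT (sgCtrl) and Trim33-KO (sgTrim33) cells received vehicle (untreated) or 1 mM hydroxyurea (HU), which stalls replication by draining deoxynucleotides, for 4 hours. Which of the KO lines received HU is not stated in the labels. Each of the 10 groups has 2 libraries (20 in all), and the labels do not say whether these came from separate cultures, so p-values measure the spread between these libraries, which may be technical. A figure legend of the study speaks of independent RNA-seq experiments without tying them to libraries.

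Most of the 55 genes are transcribed late in the cell cycle and are nearly silent in G1. In G1 the DREAM complex, which contains E2f4, holds their promoters off, and later B-Myb and Foxm1 activate them through a promoter element called the CHR, often beside CCAAT boxes bound by NF-Y. Cyclin B1 with Cdk1 then drives entry into mitosis, Plk1 and the Aurora kinases build the spindle, the spindle checkpoint holds anaphase back until chromosomes are attached, and Cdc20 and Ube2c let the anaphase-promoting complex (APC/C) destroy cyclins and securin. Because cultures are measured in bulk, a change in the share of cells in G2/M cannot be told apart from a change in mRNA per cell in these data. The study reported, from growth curves and DNA staining, that unstressed Trim33-KO and WT cells did not differ in proliferation or cell cycle profile. Whether this holds for the sequenced cultures was not tested.

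Libraries held 14753177 to 17949430 counts each in the Myc experiment, against 2315327 to 3082202 each for HU, and every member had at least 47 counts per library in the former and at least 2 in the latter. Levels are given as CPM (counts divided by the library total and scaled by edgeR's TMM method), and the tables were normalized separately, so levels are compared within an experiment only. In the HU experiment the targeted gene followed the labels: Trim33 mRNA was at 139.7 and 125.2 CPM in untreated WT libraries and at 50.8 and 43.8 CPM in untreated KO libraries. With the Ctrl vector it was at 245.6 and 258.1 CPM in WT, 123.4 and 130.4 CPM in KO1, and 200.9 and 206.8 CPM in KO2. With the Myc vector it went against the labels: the libraries labelled WT Myc had 130.7 and 154.7 CPM, those labelled KO1 Myc 185.4 and 192.5 CPM, and those labelled KO2 Myc 124.1 and 124.7 CPM. Other genes, chosen after their values were seen, set KO1 Ctrl and KO2 Myc apart together. Smc1a was at 124.5 and 128 CPM in KO1 Ctrl and 138.1 and 133.5 CPM in the libraries labelled KO2 Myc, and at 225.4 to 266.8 CPM in the other 8 libraries. Col1a1 was at 87.7 and 85.0 CPM in KO1 Ctrl and 84.5 and 81.8 CPM in those labelled KO2 Myc, and at 11.6 to 29.8 CPM in the others. In Trim33, Smc1a and Col1a1, the libraries labelled KO2 Myc were thus closer to KO1 Ctrl than to KO2 Ctrl, and those labelled KO1 Myc closer to KO2 Ctrl than to KO1 Ctrl. These values do not tell at which vector the names KO1 and KO2 are right, so both names are used as labelled with either vector. Myc mRNA was higher with the Myc vector in the libraries labelled KO1 (620.9 and 645.8 CPM against 186.4 and 196.4 CPM) and KO2 (459.4 and 498.8 CPM against 210.3 and 218.5 CPM), and close to the Ctrl level in those labelled WT (455.9 and 457.6 CPM against 432.8 and 439 CPM). The liver origin left little trace: of 12 hepatocyte markers, 1 was listed for the Myc libraries and 2 were listed for the HU libraries, with a summed level of at most 31.7 CPM, and of 4 endothelial and 6 leukocyte markers 0 and 1 were listed, the latter at up to 6.39 CPM. Epithelial markers (4 of 7 listed) summed to 1960 to 4310 CPM and mesenchymal markers (7 of 8 listed) to 4860 to 8460 CPM in the Myc experiment, and their part in the results was not tested.

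The promoters show what many of these genes have in common beyond the choice of their products. RefSeq windows on GRCm38.p6, from 250 bases before to 50 bases after the start, were held for 44 of the 55 genes. The CHR core TTTGAA, searched on both strands, was present in 32 of 44 windows (72.7%), against 18.1% of the windows of all 27025 genes and 13.8% (4 of 29) for G1/S genes, which are transcribed earlier in the cycle. CCAAT, also searched on both strands, was present in 72.7% of member windows, 37.9% of all windows and 62.1% of G1/S windows. Both motifs together were present in 61.4% of member windows and in 7.12% of all windows. The related letters TTTAAA, which read the same on both strands, were present in 22.7% of member windows and 13.2% of all windows. The 8 stretches below end at the base before the start and are written 5′ to 3′ on the gene's strand, with the 3 motifs, or their reverse complements, in capitals. They are shown because these genes carry the results that follow: Ccnb2, Plk1, Cdc20, Espl1 and Kif11 fell with HU in WT and in KO cells, while Ube2c, Cdk1 and Top2a did not pass the test there.
Ccnb2 (cyclin B2), chr9:70421555-70421674, minus strand: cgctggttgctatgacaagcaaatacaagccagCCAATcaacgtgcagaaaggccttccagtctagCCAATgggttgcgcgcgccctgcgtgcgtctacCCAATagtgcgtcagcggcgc
Plk1 (Polo-like kinase), chr7:122159315-122159434, plus strand: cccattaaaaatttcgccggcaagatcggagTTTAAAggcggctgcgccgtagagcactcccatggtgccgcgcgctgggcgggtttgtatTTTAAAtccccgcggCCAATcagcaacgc
Cdk1 (the mitotic kinase), chr10:69352913-69353032, minus strand: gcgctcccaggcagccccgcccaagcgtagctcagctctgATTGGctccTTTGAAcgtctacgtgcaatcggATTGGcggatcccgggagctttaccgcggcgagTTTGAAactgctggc
Cdc20 (APC/C activator), chr4:118437344-118437463, minus strand: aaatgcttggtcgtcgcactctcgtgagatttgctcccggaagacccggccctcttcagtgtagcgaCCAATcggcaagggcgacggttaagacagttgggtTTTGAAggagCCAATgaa
Ube2c (the E2 enzyme of the APC/C), chr2:164769809-164769928, plus strand: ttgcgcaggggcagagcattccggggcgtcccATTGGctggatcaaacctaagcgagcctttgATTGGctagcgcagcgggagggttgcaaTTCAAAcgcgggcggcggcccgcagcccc
Espl1 (separase), chr15:102296173-102296292, plus strand: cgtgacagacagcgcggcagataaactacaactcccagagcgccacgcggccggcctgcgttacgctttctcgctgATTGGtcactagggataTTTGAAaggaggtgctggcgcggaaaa
Kif11 (the motor that parts spindle poles), chr19:37376262-37376381, plus strand: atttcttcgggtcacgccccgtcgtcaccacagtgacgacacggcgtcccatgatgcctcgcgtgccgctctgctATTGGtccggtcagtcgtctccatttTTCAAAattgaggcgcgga
Top2a (DNA topoisomerase), chr11:99024190-99024309, minus strand: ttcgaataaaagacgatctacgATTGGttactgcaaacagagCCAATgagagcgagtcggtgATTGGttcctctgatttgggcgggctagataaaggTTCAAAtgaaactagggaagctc

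In Ccnb2 the 3 CCAAT boxes begin at -87, -54 and -21 from the start, 33 bases apart each time. The paired boxes of Cdk1 are 32 bases apart and those of Ube2c 31 bases apart. In the stretches of Cdc20 and Top2a, pairs on the same strand are 45 and 40 bases apart. After this spacing had been seen in the sequences, all windows were searched for CCAAT pairs on 1 strand that begin 31 to 34 bases apart. They were found in 8 of 44 member windows (18.2%), 0 of 29 G1/S windows and 0.973% of all windows. The 8 include Ccnb2, Cdk1 and Ube2c, in which the spacing was first seen, so the share of the members is partly set by that choice. A match is a description of these letters and not of a bound site.

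**Figure D1:**
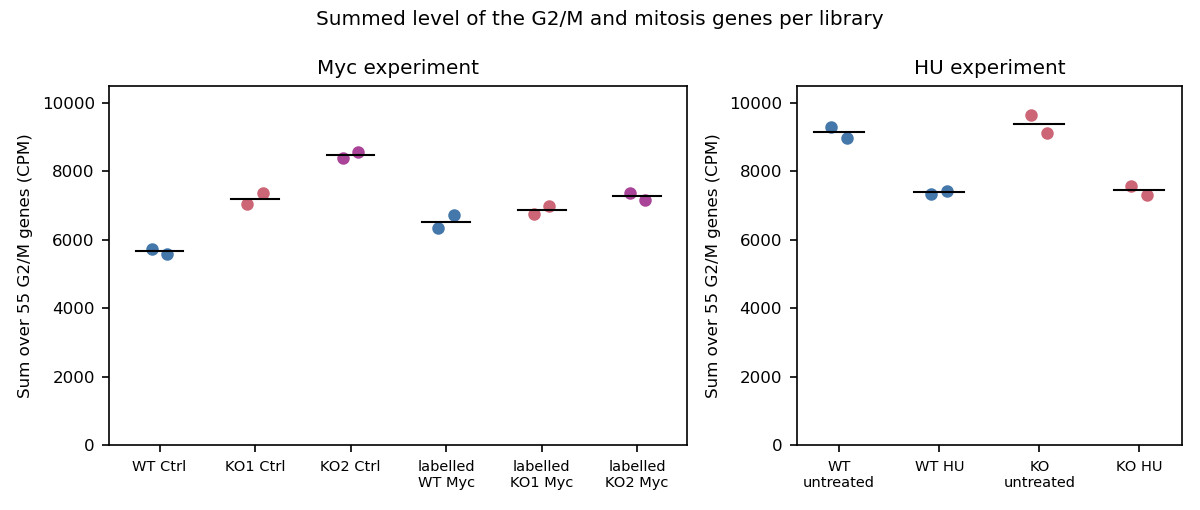
Summed level of the 55 G2/M and mitosis genes (CPM, axis from 0) in each library of the Myc experiment (left) and the HU experiment (right), with points for libraries and lines for group means. The WT Ctrl libraries (5742 and 5580) are the lowest of the Myc experiment and the KO2 Ctrl libraries (8396 and 8557) the highest, and the 4 HU libraries lie between 7317 and 7571, below the 4 untreated libraries.

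After 4 hours of HU many of the mitotic genes were lower, in WT and in KO cells, with Plk1, Cenpf, Ccnb1 and most genes of cytokinesis among them. In WT cells 25 of the 55 genes fell and 2 rose at an adjusted p-value below 0.05, while 3.44% of all 11210 genes fell, 6.39% rose and 9.83% changed in either direction. In KO cells 23 fell and 1 rose, against 1.8% and 4.65% of all genes and 6.45% in either direction. The median log2 fold change (log2FC) of the 55 genes was -0.363 in WT and -0.311 in KO cells, and the medians over all genes were 0 and -0.00985. The summed level of the 55 genes went from 9311 and 8992 CPM to 7334 and 7440 CPM in WT, and from 9647 and 9112 CPM to 7571 and 7317 CPM in KO. The untreated and HU libraries do not overlap in this sum.

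Among the genes of mitotic entry, Plk1, the kinase that acts from entry to cytokinesis, showed the firmest fall. Its level was 157.6 and 168.8 CPM in untreated WT libraries and 72.5 and 61.3 CPM after HU, and 172.4 and 213.5 CPM in untreated KO libraries and 69.3 and 78.2 CPM after HU. All HU libraries thus had less than any untreated library, with a log2FC of -1.28 (SE 0.143, adjusted p = 1.35e-10) in WT and -1.39 (SE 0.141, adjusted p = 6.33e-12) in KO cells. Ccnb1, which encodes cyclin B1, was at 102.8 and 91.0 CPM in untreated WT and 53.5 and 46.4 CPM after HU, and at 110.2 and 90.5 CPM in untreated KO and 56.6 and 60.5 CPM after HU. The log2FC was -0.95 in WT (adjusted p = 1.66e-05) and -0.77 in KO cells (adjusted p = 0.000599). Ccnb2 and Ccna2, the other mitotic cyclins of the list, fell by 0.57 and 0.41 in WT and by 0.48 and 0.55 in KO cells on the log2 scale.

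The catalytic partner of these cyclins did not follow them past the threshold. Cdk1 was at 275.4 and 279.3 CPM in untreated WT and 231.9 and 245.9 CPM after HU, and its log2FC of -0.22 had an adjusted p of 0.252. In KO cells it was at 281.3 and 257.9 CPM untreated and 242.5 and 262.4 CPM after HU, where the groups overlap. Aurka, the spindle pole kinase, was at 94.2 and 104.5 CPM before and 95.5 and 105.3 CPM after HU in WT cells. Cdc25c, the phosphatase that activates Cdk1, fell by 1.21 in WT cells (adjusted p = 0.000291), from 40.7 and 51.9 CPM to 22.9 and 17.0 CPM, and went from 30.9 and 23.4 CPM to 18.03 and 17.39 CPM in KO cells (log2FC -0.61, adjusted p = 0.203).

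A pair of members went the other way. Gtse1, which holds p53 in the cytoplasm in G2 and is itself a p53-responsive gene, rose from 99.8 and 97.0 CPM to 225.3 and 192.6 CPM in WT cells (2.13-fold, adjusted p = 2.12e-09) and from 95.5 and 119.9 CPM to 190.9 and 187.3 CPM in KO cells (1.75-fold, adjusted p = 5.35e-06). Kif18b, a motor that shortens astral microtubules, rose from 39.4 and 49.6 CPM to 95.5 and 86.6 CPM in WT cells (2.04-fold, adjusted p = 1.27e-05). In KO cells Kif18b began higher, at 74.0 and 71.8 CPM, and was at 119.8 and 81.4 CPM after HU, a log2FC of 0.47 that did not pass the test (adjusted p = 0.0785).

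**Figure D2:**
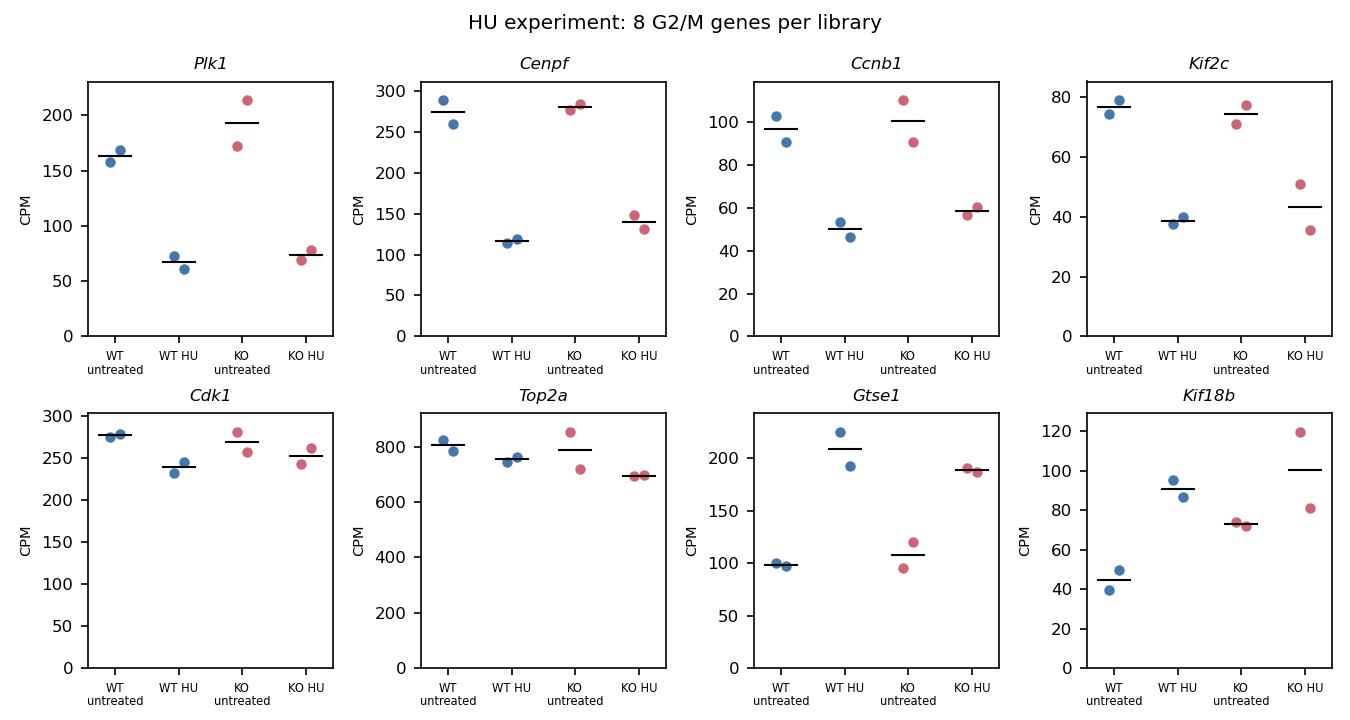
Levels (CPM, axes from 0) of 8 G2/M genes in each library of the HU experiment, with points for libraries and lines for group means (2 libraries per group, WT in blue, KO in red). For Plk1, Cenpf, Ccnb1 and Kif2c every HU library lies below every untreated library, Gtse1 and Kif18b show the reverse, and Cdk1 and Top2a moved little.

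Of the 9 genes listed under the spindle checkpoint and anaphase, 5 fell in WT cells (Bub1, Bub1b, Ttk, Cdc20 and Espl1) and 4 in KO cells (Bub1b, Cdc20, Espl1 and Cdca3). Cdca3, part of a ligase that degrades Wee1, is in this role by the list only. Cdc20, which activates the APC/C, went from 161.1 and 172.2 CPM to 113 and 115 CPM in WT and from 193.1 and 205.8 CPM to 130.1 and 132 CPM in KO cells, log2FC of -0.55 and -0.61. Espl1, the protease that cuts cohesin at anaphase, fell by 0.63 in WT (103.7 and 114.3 CPM to 63.3 and 77.9 CPM) and by 1.30 in KO cells (118.7 and 139.3 CPM to 50.2 and 54.5 CPM). The difference between the KO and the WT response of Espl1 was -0.68 (SE 0.221, adjusted p = 0.641). Bub1, a checkpoint kinase, went from 123.8 and 96.6 CPM to 74.5 and 77.6 CPM in WT (log2FC -0.53, adjusted p = 0.0137) and from 113 and 95.2 CPM to 91.2 and 84.6 CPM in KO cells (log2FC -0.24, adjusted p = 0.445). Securin (Pttg1) had too few counts for a statement, at 0.857 to 8.27 CPM over the 8 libraries.

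Cytokinesis was the role with the largest share of falls, 8 of 9 genes in WT and 7 of 9 in KO cells. Kif20a and Kif23, motors of the central spindle, fell by 0.55 and 0.60 in WT and by 0.56 and 0.62 in KO cells, and Anln, which crosslinks the contractile ring, fell by 0.40 and 0.57. Arhgef39 had the lowest log2FC of the list, -2.13 in WT and -2.07 in KO cells, but on a low level of 8.57 and 10.5 CPM in untreated WT against 2.86 and 1.39 CPM after HU, with SEs of 0.611 and 0.604. The spindle motors and microtubule proteins gave 4 falls of 9 in WT and 5 of 9 in KO cells. Kif2c, which depolymerizes microtubules at centromeres to correct faulty attachments, went from 74.5 and 78.9 CPM to 37.5 and 39.8 CPM in WT and from 71.2 and 77.5 CPM to 50.9 and 35.6 CPM in KO cells, log2FC of -0.99 and -0.78. Kif11 fell by 0.66 and 0.49 and Tpx2, which activates Aurora A on the spindle, by 0.52 and 0.65.

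Among the genes of the kinetochore, the passenger complex and chromosome structure, 1 in each role fell in WT cells, and no test between roles was made. Cenpf was the only called member of 7 at the kinetochore, in WT and in KO cells: this large kinetochore protein, which peaks in G2, went from 288.3 and 259.8 CPM to 114.5 and 119.1 CPM in WT (log2FC -1.23, SE 0.121, adjusted p = 1.77e-12) and from 276 and 284 CPM to 147.8 and 130.8 CPM in KO cells (log2FC -1.01, SE 0.119, adjusted p = 1.26e-09). Of the 4 passenger genes, Birc5 (survivin) fell by 0.48 in WT cells (190.2 and 228.9 CPM to 129.8 and 171.1 CPM, adjusted p = 0.00628) and had a log2FC of -0.30 in KO cells, while Aurkb, the kinase of that complex, was at 99.8 and 106.4 CPM before and 100.9 and 99.4 CPM after HU in WT. Of 7 genes of chromosome structure, Smc2 alone fell in WT and Ncapd2 alone in KO cells, both of condensin. Top2a was at 824.6 and 786.8 CPM before and 744.8 and 765.4 CPM after HU in WT, log2FC -0.09 (SE 0.099, adjusted p = 0.651).

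**Figure D3:**
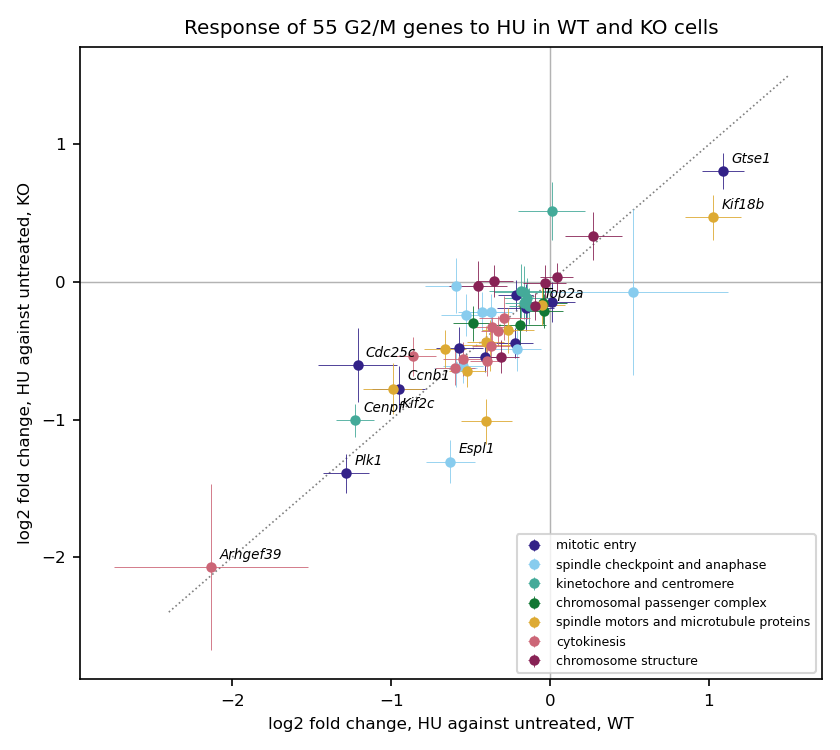
Log2 fold change of each of the 55 genes with HU in WT cells (horizontal) and KO cells (vertical), with SE bars, colors for roles and a dotted line of equal response. Plk1 (-1.28 and -1.39), Cenpf (-1.23 and -1.01) and Arhgef39 (-2.13 and -2.07) lie at the lower left, and Gtse1 (1.09 and 0.81) and Kif18b (1.03 and 0.47) at the upper right.

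The responses of WT and KO cells, which share no library, had the same sign for 52 of the 55 genes and were negative in both for 47. The 19 genes that fell in both are 19 of the 25 called in WT and 19 of the 23 called in KO cells. Across the 55 genes the pair of responses gave Pearson's r = 0.853 and a Spearman rank coefficient of 0.796, a description only, since genes are not independent replicates and share libraries and scaling. The same counts and coefficients were not taken over all genes. They therefore do not show whether this agreement is particular to the 55 genes. The test of the difference between the responses called 0 of the 55 genes by edgeR and 0 by DESeq2. By edgeR, 0.0714% of all genes were called (0.0446% higher and 0.0268% lower). At an unadjusted p below 0.05 by edgeR there were 5 of the 55, and the share of all genes at that threshold was not counted. The SE of that difference had a median of 0.202, so that only differences well above this size could have been seen at the depth of the HU experiment. The count in WT was 14 without WT HU replicate 1 and 17 without WT HU replicate 2, and that in KO was 13 without KO HU replicate 2, in place of 27 and 24.

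Other genes of the pathway place this response. Over all genes, 3.44% fell and 6.39% rose in WT, and 1.8% fell and 4.65% rose in KO cells. Of 30 further spindle, motor and centrosome genes, 8 fell and 0 rose in WT, and 10 fell and 1 rose in KO cells, with Fam83d (-2.00 in WT), Kif18a (-1.28) and Aspm (-1.11) lowest in WT. Of 41 further kinetochore and cohesion genes, 3 fell and 1 rose in WT and 0 fell and 1 rose in KO cells. Of 34 G1/S genes, 0 fell and 2 rose in WT and 0 fell and 3 rose in KO cells, with medians of 0.135 and 0.167. Of 16 further genes of entry and proliferation 2 and 4 fell and 0 rose, and of 15 APC/C genes 1 and 2 fell and 0 rose. Of 13 factors that act on G2/M promoters 1 rose and 0 fell in each line. Of 12 genes that restrain entry into mitosis, 4 rose in each line and 1 fell in WT. Cdkn1a, which encodes the Cdk inhibitor p21, went from 57.4 and 49.6 CPM to 478.2 and 478.6 CPM in WT (log2FC 3.16) and from 87.4 and 96.9 CPM to 578.3 and 563.5 CPM in KO cells (log2FC 2.63). Gadd45a rose by 2.69 and 3.05 and Btg2 by 2.79 and 3.20.

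Falls with HU were counted against the promoter letters shown above. In WT cells 17 of 32 genes with TTTGAA and 4 of 12 without it fell, with median log2FC of -0.366 and -0.273. In KO cells 17 of 32 and 2 of 12 fell, with medians of -0.398 and -0.201. Of the 11 genes without a window, 4 fell in each line, with medians of -0.266 in WT and -0.351 in KO. For KO1 against WT with the Ctrl vector, 22 of 32 and 7 of 12 were higher (medians 0.404 and 0.433). For KO2 against WT these were 28 of 32 and 10 of 12 (medians 0.67 and 0.502). In both, 1 gene with TTTGAA and 0 without it were lower. No test was made of these counts, and the share of all genes with TTTGAA that changed was not counted. Plk1 and Ccnb2, which fell, are among the 32 genes with TTTGAA through matches outside the stretches shown. These lie at +31 in Plk1 and at -167 and +5 in Ccnb2. Cdk1 and Top2a, which did not pass the test, are among the 32 too.

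In the Myc experiment most of the mitotic genes were higher in the KO lines than in WT cells with the Ctrl vector, while the HU experiment, given further on, did not show this. In KO1 cells carrying the Ctrl vector, 35 of the 55 genes were higher and 2 lower than in WT cells at an adjusted p-value below 0.01, where 52.2% of all 13107 genes were called (25.5% higher and 26.7% lower). In KO2, 47 were higher and 1 lower, where 49.9% of all genes were called (23.3% higher and 26.6% lower). These comparisons share the WT Ctrl libraries. Some markers of cell type moved with the same contrast: Krt19, a keratin of bile duct cells, was at 414.5 and 395.7 CPM in WT, 48.6 and 46.8 CPM in KO1 and 112.3 and 119.4 CPM in KO2. Pdgfrb, a receptor of mesenchymal cells, was at 16.3 and 16.9 CPM in WT, 191.2 and 167.6 CPM in KO1 and 106.1 and 98.1 CPM in KO2. Other markers of these lists did not all follow. The mesenchymal Fn1 was at 3361 and 3383 CPM in WT, 4467 and 4541 CPM in KO1 and 1750 and 2013 CPM in KO2. Col1a2 was at 131.3 and 129.4, 141.6 and 140.8, and 17.2 and 14.6 CPM. The epithelial Krt8 was at 1910 and 1794, 1652 and 1687, and 1868 and 1893 CPM. Sox9, a bile duct and progenitor factor, was at 188.4 and 200 CPM in WT and 49.5 to 59.8 CPM in the KO libraries. The part of these markers, which were chosen after their values were seen, in the levels of the mitotic genes was not tested. The median log2FC of the 55 genes was 0.407 in KO1 and 0.602 in KO2, and that of all genes was -0.00362 and -0.0112. KO2 was in turn above KO1 for 23 of the 55 genes and below it for 0, where 18.3% of all genes were called (8.33% higher and 9.96% lower), but 8 to 12 passed when 1 of the 4 libraries was left out.

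**Figure D4:**
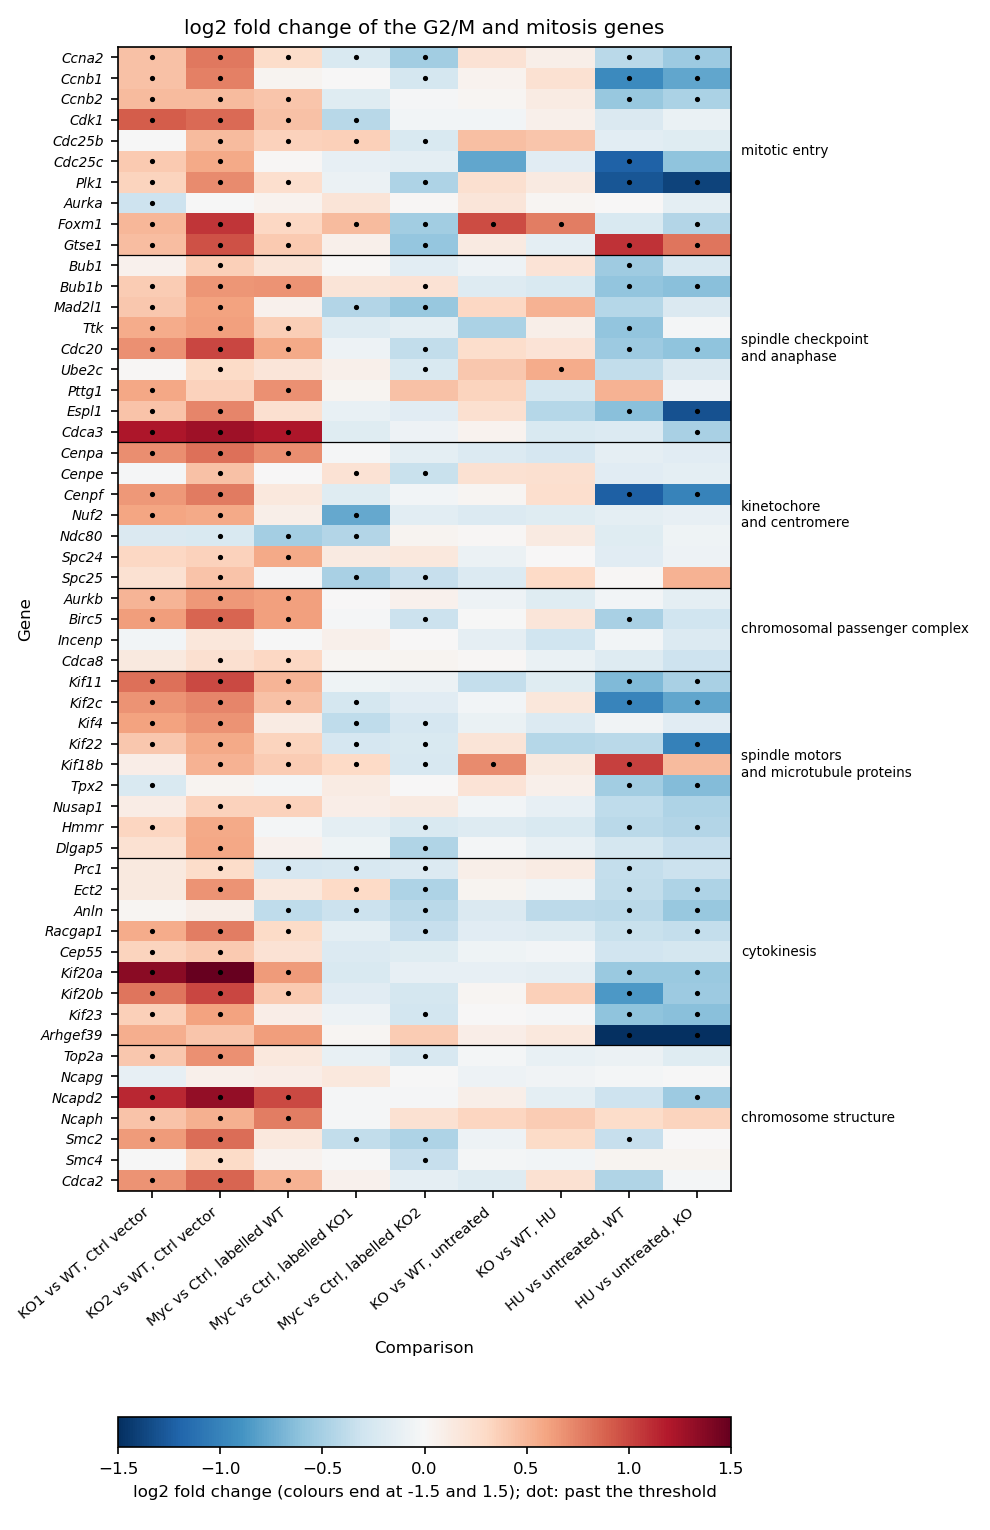
Log2 fold change of each of the 55 genes (rows, by role) in 9 comparisons (columns), from blue (lower) to red (higher), with a dot where the adjusted p-value passed the threshold of 0.05 for HU and 0.01 elsewhere. The KO1 and KO2 columns with the Ctrl vector are mostly red (35 and 47 genes higher), both HU columns mostly blue (25 and 23 lower), and the columns of KO against WT in the HU experiment nearly without dots (2 each).

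The largest rises were those of Kif20a, Cdca3 and Ncapd2. Kif20a was at 55.2 and 55.6 CPM in WT, 137.5 and 146.6 CPM in KO1 and 162.1 and 155.9 CPM in KO2, or 2.57-fold (SE 0.075 on the log2 scale, adjusted p = 1.8e-10) and 2.87-fold (SE 0.0748, adjusted p = 7.02e-11) above WT. Cdca3, part of a ligase that degrades the mitotic inhibitor Wee1, was at 26.6 and 21.7 CPM in WT, 56.2 and 55.5 CPM in KO1 and 60.6 and 56.0 CPM in KO2 (2.31-fold and 2.42-fold). Ncapd2, a condensin subunit, was at 89.4 and 87.6 CPM in WT, 190.2 and 198.6 CPM in KO1 and 225.6 and 214.3 CPM in KO2 (log2FC 1.14 and 1.31). For these 3 genes all KO libraries lay above all WT libraries.

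The rises were spread over the roles. Of 10 genes of mitotic entry, 8 rose in KO1 and 9 in KO2, and of 9 of the spindle checkpoint and anaphase, 7 and 8. Of 9 spindle motor and microtubule genes 5 and 8 rose, of 9 cytokinesis genes 5 and 7, of 7 chromosome structure genes 5 and 6, of 7 kinetochore genes 3 and 6, and of 4 passenger genes 2 and 3. Cdk1 was at 133.5 and 123.1 CPM in WT, 237.1 and 244 CPM in KO1 and 226.1 and 235.2 CPM in KO2, log2FC of 0.91 and 0.85. Kif11 was at 105.4 and 97.5 CPM in WT, 177.7 and 180.7 CPM in KO1 and 195.4 and 206.2 CPM in KO2, log2FC of 0.82 and 0.99. Top2a was at 579.4 and 554 CPM in WT, 721.3 and 778.1 CPM in KO1 and 895.4 and 924.8 CPM in KO2, log2FC of 0.40 and 0.68. For each of these genes the KO libraries lay above both WT libraries.

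Several members separated the 2 KO lines as labelled, whose names conflict between the vectors in the genes given above. Foxm1, the forkhead factor that activates many of the other members, was at 119.8 and 117.7 CPM in WT, 164.4 and 170 CPM in KO1 and 247.2 and 251.4 CPM in KO2, and was 1.49-fold higher in KO2 than in KO1 (adjusted p = 4.97e-06). Plk1 was at 100.8 and 91.5 CPM in WT, 119.1 and 123.2 CPM in KO1 and 157.9 and 155.1 CPM in KO2, and Ccnb1 at 60.3 and 67.3, 85.4 and 87.6, and 108.8 and 107 CPM. Both rose in KO1 (log2FC 0.33 and 0.44) and in KO2 (0.70 and 0.76), and both were higher in KO2 than in KO1 (0.37 and 0.32). Gtse1 and Ect2, a cytokinesis gene, followed the same order, with differences of 0.49 and 0.53 between KO2 and KO1. Cdc25b did not, since it was at 80.4 and 73.8 CPM in WT and 75.9 and 78.2 CPM in KO1, where the groups overlap, and at 103.9 and 110 CPM in KO2.

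**Figure D5:**
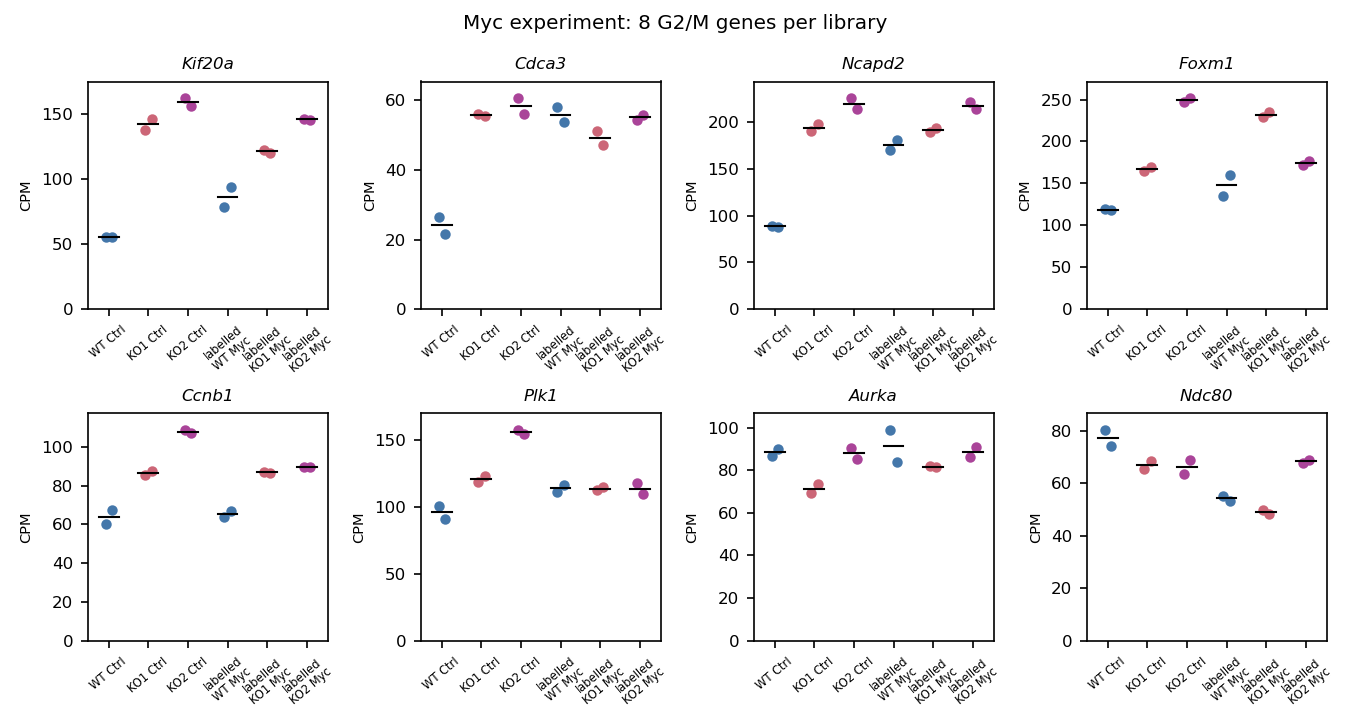
Levels (CPM, axes from 0) of 8 G2/M genes in each library of the Myc experiment, with points for libraries and lines for group means (2 libraries per group, WT in blue, KO1 in red, KO2 in purple, Myc-vector groups named as labelled). Kif20a, Cdca3 and Ncapd2 are lowest in the WT Ctrl libraries, Foxm1, Ccnb1 and Plk1 highest in KO2 Ctrl, and Aurka and Ndc80 do not follow that pattern.

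A few genes went against the rest. Aurka was lower in KO1 (69.3 and 73.4 CPM) than in WT (86.8 and 89.9 CPM), log2FC -0.31 (adjusted p = 0.00197), and at 90.6 and 85.1 CPM in KO2, where it did not differ past the threshold (log2FC -0.01). Tpx2 was at 223.3 and 223.4 CPM in WT and 182.4 and 199.9 CPM in KO1 (log2FC -0.22, adjusted p = 0.0026), and at 229.9 and 229 CPM in KO2. The calls of Aurka and Tpx2 in KO1 did not hold in every fit with 1 library left out, while their signs stayed. Ndc80, which binds microtubules at the outer kinetochore, was at 80.4 and 74.4 CPM in WT and 63.5 and 69.1 CPM in KO2 (log2FC -0.22, adjusted p = 0.00842), a call that was lost with DESeq2, with RLE scaling and with a filter at a mean of 5 CPM. Its partner Nuf2 rose in both lines (log2FC 0.59 and 0.57).

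Of the remaining named members, Cdc20 was at 70.3 and 69.5 CPM in WT, 111.8 and 112.7 CPM in KO1 and 142.5 and 137.6 CPM in KO2 (log2FC 0.68 and 1.00). Cenpf was at 106.3 and 96.3 CPM in WT, 150.4 and 167.2 CPM in KO1 and 170.5 and 178.1 CPM in KO2 (0.65 and 0.78). Aurkb was at 53.8 and 45.9 CPM in WT, 66.8 and 74.7 CPM in KO1 and 79.4 and 77.4 CPM in KO2 (0.51 and 0.65). These 3 genes rose in both lines, and their KO libraries do not overlap with WT. Birc5 was at 68.3 and 59.1 CPM in WT, 98.5 and 98.1 CPM in KO1 and 120.6 and 112.6 CPM in KO2 (0.63 and 0.87). Bub1 was at 82.7 and 81.5 CPM in WT, 84.2 and 86.8 CPM in KO1 and 105.4 and 104.5 CPM in KO2, and passed the test in KO2 (log2FC 0.35) but not in KO1 (0.06, adjusted p = 0.492).

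The G1/S genes were also higher, 28 of 34 in KO1 (2 lower) and 30 of 34 in KO2 (1 lower), with medians of 0.791 and 0.953 and with Ung (2.05 and 2.11) and Ccne2 (2.02 and 2.24) among the largest. Over all genes, 25.5% were higher and 26.7% lower in KO1, and 23.3% and 26.6% in KO2. Of 30 further spindle, motor and centrosome genes 19 and 24 were higher (3 and 1 lower), and of 41 further kinetochore and cohesion genes 15 and 21 (3 and 2 lower). Of 16 further genes of entry and proliferation 10 and 12 were higher (2 and 1 lower), and of 15 APC/C genes 8 and 8 (1 and 1 lower). Of 13 factors that act on G2/M promoters 4 and 4 were higher (1 and 0 lower), a share of 30.8% that is near that of all genes. Of 12 genes that restrain mitosis, 6 were higher and 2 lower in each line. Cdkn1a was lower in both lines (log2FC -1.30 and -0.95), as was Gadd45a (-2.15 and -2.58), while Btg2 was higher (1.34 and 0.74) and Gadd45b was 2.19 higher in KO1. Mybl2, which encodes B-Myb, was higher in both (0.86 and 1.40).

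In the HU experiment the same comparison gave another picture. Among untreated cells 2 of the 55 genes were higher and 0 lower in KO than in WT, where 5.58% of all genes were called (3.07% higher and 2.52% lower), and after HU again 2 were higher and 0 lower, where 6.04% were called (3.27% higher and 2.77% lower). The median log2FC of the 55 genes was 0.00801 untreated and 0.011 after HU, with a median SE of 0.139 and 0.147. Foxm1 was called in both states: it was at 203.5 and 199.2 CPM in untreated WT and 402.1 and 393.6 CPM in untreated KO (log2FC 0.98, SE 0.112, adjusted p = 4.73e-10), and at 179.1 and 165.6 CPM in WT and 306.5 and 279 CPM in KO after HU (log2FC 0.76, adjusted p = 6.4e-07). Every KO library lay above every WT library. The other calls were Kif18b in untreated cells (log2FC 0.70, adjusted p = 0.00539), which DESeq2 did not call, and Ube2c after HU, at 126.6 and 109.1 CPM in WT and 178.9 and 169.1 CPM in KO (log2FC 0.56, adjusted p = 0.00168). Kif20a, the largest rise with the Ctrl vector, was at 200.9 and 206 CPM in untreated WT and 179.3 and 193.1 CPM in untreated KO (log2FC -0.13, SE 0.121), and Ncapd2 at 222.3 and 245.9 CPM and 243.9 and 252.3 CPM (log2FC 0.08, SE 0.116). Cdkn1a, lower in both KO lines with the Ctrl vector, was higher in KO than in WT in untreated cells here (log2FC 0.79, adjusted p = 3.71e-05). The difference between the experiments was not tested. Their tables were normalized separately, and their libraries also differ in depth and in the vector.

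In the libraries labelled with the Myc vector, all directions hold for the labels only, since Trim33 mRNA went against them and the KO1 and KO2 libraries resembled each other across vectors in the genes given above. In the libraries labelled WT Myc, 28 of the 55 genes were higher and 3 lower than in WT Ctrl, where 44.3% of all genes were called (21.6% higher and 22.7% lower), with a median log2FC of 0.273. Cdca3 (58.1 and 53.8 CPM against 26.6 and 21.7 CPM), Ncapd2 (170.8 and 180.7 CPM against 89.4 and 87.6 CPM) and Ncaph (82.4 and 83.3 CPM against 52.1 and 45.3 CPM) were raised most, by 1.21, 0.99 and 0.77 on the log2 scale. The lower genes were Ndc80, Anln and Prc1 (-0.51, -0.38 and -0.25). Between those labelled KO1 Myc and KO1 Ctrl, 5 were higher and 12 lower, where 36.1% of all genes were called (17.9% higher and 18.2% lower). Between those labelled KO2 Myc and KO2 Ctrl, 1 was higher and 25 were lower, where 38.8% were called (20.2% higher and 18.6% lower). Leaving out 1 library took these counts of 17 and 26 called genes down to 9 and to 14.

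Nuf2 was the lowest in the labelled KO1 comparison, at 44.7 and 45.8 CPM with the Myc vector and 78.1 and 76.6 CPM with the Ctrl vector (log2FC -0.77). By the labels, Foxm1 was higher in KO1 Myc than in KO1 Ctrl (log2FC 0.47) and lower in KO2 Myc than in KO2 Ctrl (-0.52). Its 229.1 and 234.9 CPM in the libraries labelled KO1 Myc are, however, near the 247.2 and 251.4 CPM of KO2 Ctrl, and its 171.5 and 176.9 CPM in those labelled KO2 Myc near the 164.4 and 170 CPM of KO1 Ctrl, the same resemblance as that of Trim33, Smc1a and Col1a1. Gtse1 (-0.58), Mad2l1 (-0.56) and Ccna2 (-0.52) fell most between those labelled KO2 Myc and KO2 Ctrl. Among libraries with the Myc vector, 5 of the 55 genes were higher and 2 lower in those labelled KO1 than in those labelled WT (25.1% of all genes called, 12.6% higher and 12.5% lower), and 18 were higher and 0 lower in those labelled KO2 (35.2% called, 17.2% higher and 18% lower). The count of 7 called genes for KO1 became 15 without WT Myc replicate 2 and 3 without KO1 Myc replicate 2, and that of 18 for KO2 became 11 without KO2 Myc replicate 1 and 7 with the compared groups alone in the fit. Kif20a (0.49 and 0.76) and Ccnb1 (0.41 and 0.45) were higher in both. The summed level of the 55 genes was 6355 and 6719 CPM in the libraries labelled WT Myc, 6750 and 6979 CPM in those labelled KO1 Myc, and 7383 and 7172 CPM in those labelled KO2 Myc, a narrower range than with the Ctrl vector.

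The response to the Myc vector was also compared between lines, again for the labels as given. It was lower in the libraries labelled KO1 than in those labelled WT for 26 of the 55 genes and higher for 0, where 37.3% of all genes were called (19.2% higher and 18.1% lower). For those labelled KO2 it was lower for 37 genes and higher for 1, where 32.8% were called (16.6% higher and 16.2% lower). Both comparisons share the WT libraries. The same value is the KO against WT difference with the Myc vector less that with the Ctrl vector. It thus also carries the rises with the Ctrl vector given above. The median KO against WT log2FC was -0.000527 with Myc and 0.407 with Ctrl for KO1, and 0.103 and 0.602 for KO2.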

How the data were processed

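RNA-seq was analysed in 20 libraries of 10 groups, assigned from the sample labels. The authors mapped reads to mm9 with STAR 2.5.4 and deposited counts, whole numbers of reads per gene. The counting tool and annotation are not given in the sources used here. The Myc table is named normalized but holds whole numbers with differing totals. Of counts from 1 to 50, 71.9% were even in the HU experiment and 48.4% in the Myc experiment, so halved counts were tried. The authors also deposited their own edgeR results (fold changes, p-values), which were not used.

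Each table was fitted alone in edgeR 4.0.16 (R 4.3.3, limma 3.58.1) with TMM, 1 coefficient per group, the quasi-likelihood test and Benjamini-Hochberg adjustment over all genes. The threshold was 0.01, and 0.05 for HU against untreated and for its difference between KO and WT. The filter filterByExpr removed 0 genes. SE is the absolute log2FC over the root of F. Replicates differed beyond counting noise in every group of the Myc experiment (squared difference per gene 2.17 to 10.8 times that of counting noise, highest in the libraries labelled WT Myc). In the HU experiment the value was 2.22 to 4.46. Counting noise may be understated there, since most low counts were even. CPM values use TMM library sizes. Named genes are 12 chosen members, up to 3 called members or pathway genes with the largest rise and fall per comparison. Further members named to describe a role, such as Espl1, Kif23, Tpx2 and Nuf2, were chosen after their values were seen. Members, gene lists and tests were chosen with earlier results of these data known. The code was tested on simulated data. Alternatives were RLE scaling, no filter, a mean of at least 5 CPM, DESeq2 1.42.0, the compared groups alone, a replicate block, and leaving out each library. Promoter sequences are from RefSeq (GRCm38.p6), 1 window per gene.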

Additional observations from a re-analysis of the deposited data

Results flagged for a closer look

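The response to the Myc vector differed between lines by a test of the difference itself, with edgeR's interaction term and for the labels as given, against which Trim33 mRNA went. Between the libraries labelled KO1 and WT, 26 of the 55 G2/M genes differed in this response, all with a lower value in KO1, where 37.3% of all genes were called (18.1% lower). The differences were -1.39 for Cdca3, -1.01 for Ncapd2 and -0.87 for Kif20a on the log2 scale. Between the libraries labelled KO2 and WT, 38 genes differed, 37 of them lower in KO2, where 32.8% of all genes were called (16.2% lower). Here the differences were -1.29 for Cdca3, -1.0 for Ncapd2 and -0.97 for Gtse1, and 0.56 for Ndc80, the gene with a higher value in KO2. Both tests use the same WT libraries, and Myc mRNA in those labelled WT Myc was close to that in WT Ctrl. The values also carry the KO against WT differences with the Ctrl vector, and are not separate from the rises given above. In Trim33, Smc1a and Col1a1 the libraries labelled KO1 Myc were closer to KO2 Ctrl, and those labelled KO2 Myc closer to KO1 Ctrl. The part that the labels of the Myc-vector libraries play in these values was not tested.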

How the results depend on the processing

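The numbers in the labels did not pair the samples: same-numbered libraries deviated together with correlations of -0.148 to 0.192 over 15 pairs in the Myc experiment, 1 of them over 0.1, and of -0.0136 to 0.051 over 6 pairs in the HU experiment. With a block for the replicate number, 4 G2/M genes in place of 2 passed for KO against WT after HU, and no other count of the 15 comparisons moved by over 1.5 times. With the compared groups alone in the fit, the counts were 35 in place of 23 for KO2 against KO1 with the Ctrl vector, 3 in place of 7 and 7 in place of 18 for those labelled KO1 and KO2 against WT with the Myc vector, 1 in place of 2 for KO against WT untreated (also 1 with DESeq2), and 4 in place of 2 after HU. The cause was not tested.

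Leaving out 1 library gave 32 to 36 for KO1 and 44 to 45 for KO2 against WT with the Ctrl vector, 8 to 12 for KO2 against KO1 (8 and 12 without KO1 Ctrl replicates 1 and 2, 10 without either of KO2 Ctrl), 24 to 36 for labelled Myc against Ctrl in WT, 9 to 12 in KO1 (10 and 9 without KO1 Ctrl replicates 1 and 2, 11 without KO1 Myc replicate 1) and 14 to 17 in KO2 (17 and 14 without replicates 1 and 2 of either group). It gave 3 to 15 for labelled KO1 against WT with Myc (15 without WT Myc replicate 2, 3 without KO1 Myc replicate 2), 11 to 20 for KO2 (11 without KO2 Myc replicate 1), 22 to 30 and 31 to 40 for the differences in response, 1 to 3 for KO against WT untreated (1 without either KO library), 14 to 24 and 13 to 20 for HU in WT and KO, 1 to 2 for KO against WT after HU (1 without WT replicate 2 or either KO library) and 0 to 0 for the difference in HU response. A lone library left in a group is assumed to vary like the others. Aurka, not called and near 0, changed sign in 2 comparisons: for KO2 against WT with the Ctrl vector it was 0.00721 with a filter at a mean of 5 CPM, 0.00671 with the compared groups alone, 0.0079 with the Ctrl-vector libraries alone (chosen after seeing the data) and -0.0547 to 0.0359 leaving out 1 library, and for HU in WT it was -0.0695 to 0.0817 leaving out 1 library.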
